A study of Mus musculus with 21 samples.

Results

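Cholesterol and fatty acid synthesis in lung fibroblasts was followed through 32 genes chosen by name, of 23204 gene symbols in the deposited count tables. The sterol branch has 20 genes: 7 of the mevalonate pathway, 3 leading to squalene and lanosterol, 7 between lanosterol and cholesterol, and 3 that control sterol synthesis or move sterols (Srebf2, Insig1 and Stard4). The fatty acid branch has 12 genes: 3 that supply acetyl-CoA or NADPH, 2 that build the chain, 3 elongases and 4 desaturases. All 32 were present, and all 32 were among the 11669 genes that passed the filter on low counts.

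The cells came from the lungs of female C57BL/6 mice that carry a Col1a2-GFP transgene, and every group shared this background. There were 7 groups of 3 libraries: untreated mice, and mice on day 7, 14 or 63 after a single oropharyngeal dose of either bleomycin (BLM, 2 mg/kg), a DNA-damaging drug, or crystalline silica (SiO2, 400 mg/kg), a mineral dust. Live cells negative for the lineage markers CD45, CD31, EpCAM, CD146 and Ter119 and positive for GFP were sorted, 10000 per library, and their polyadenylated RNA was read at the 3′ end by 3′SAGE-seq. The study set BLM as a reversible and SiO2 as a progressive model of lung fibrosis. GFP was driven by Col1a2, a collagen gene, so the sort takes cells in which that promoter is active. The controls were untreated rather than given saline alone. The labels number the libraries 1 to 3 but do not say whether these are separate mice, so the p-values measure only the spread between these libraries, which may be technical.

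Cells build cholesterol from acetyl-CoA. The mevalonate pathway makes isoprenoid units, squalene is formed and closed into lanosterol, and a series of demethylations, reductions and isomerisations turns lanosterol into cholesterol. Fatty acids start from the same acetyl-CoA: acetyl-CoA carboxylase and fatty acid synthase build palmitate with reducing power from NADPH, elongases lengthen it, and desaturases add double bonds. Many enzymes of both branches are transcribed under the SREBP factors, which INSIG proteins hold back in the endoplasmic reticulum while sterol is plentiful. In the lung these pathways are best known for surfactant lipid in epithelial cells. Fibroblasts use them for membranes, and lipid-laden fibroblasts are a recognised lung cell population.

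SREBP is known to act through sterol regulatory elements, usually beside a CCAAT box bound by NF-Y, so the bases just before the transcription start of these genes are shown first. RefSeq promoters (build GRCm38.p6) were available here for 25 of the 32 genes, and 250 bases before the start were searched on both strands. The element-like letters TCACNCCAC were found in 1 of these 25 genes, Hmgcs1, against 1.22% of all 27025 genes in the table. CCAAT was found in 20 of the 25 (80%), in 15 of 16 of the sterol branch and 5 of 9 of the fatty acid branch, against 37.5% of all genes. The shorter TCACNCCA, which lies within TCACNCCAC, was found in Hmgcs1 and Srebf2 and in 4.2% of all genes. TCACNCCA and CCAAT were chosen after the data had been seen, and a match of letters is a description and not evidence of binding.

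The 150-base windows lie within 250 bases before the start of 6 genes and are written 5′ to 3′ on the strand of the gene, with the TCACNCCA letters and the CCAAT letters (or their reverse complement, ATTGG) in capitals. Hmgcs1, at chr13:119690201-119690350 (plus strand), is the one of the 25 that holds TCACNCCAC, and it also holds CCAAT. Mvd, at chr8:122443423-122443572 (minus strand), and Nsdhl, at chrX:72918371-72918520 (plus strand), each hold the CCAAT letters at 2 places. Ebp, at chrX:8193513-8193662 (minus strand), and Sc5d, at chr9:42264301-42264450 (minus strand), are neighbouring steps of the pathway. Their changes from untreated passed the test in opposite directions at BLM day 14, SiO2 day 7 and SiO2 day 63. Elovl6, at chr3:129532205-129532354 (plus strand), had the highest fold change of the fatty acid branch and shows neither motif in this window. All but Hmgcs1 were chosen for display after their values were seen.
Hmgcs1: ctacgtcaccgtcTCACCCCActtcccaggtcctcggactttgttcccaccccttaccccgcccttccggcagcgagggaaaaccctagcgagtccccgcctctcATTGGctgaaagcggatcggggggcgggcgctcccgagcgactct
Mvd: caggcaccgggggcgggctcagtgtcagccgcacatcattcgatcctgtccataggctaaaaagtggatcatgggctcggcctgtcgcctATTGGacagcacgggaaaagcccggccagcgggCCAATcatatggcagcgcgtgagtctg
Nsdhl: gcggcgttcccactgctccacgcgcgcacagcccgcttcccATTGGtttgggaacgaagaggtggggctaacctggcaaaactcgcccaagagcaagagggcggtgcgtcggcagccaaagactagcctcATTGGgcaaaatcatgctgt
Ebp: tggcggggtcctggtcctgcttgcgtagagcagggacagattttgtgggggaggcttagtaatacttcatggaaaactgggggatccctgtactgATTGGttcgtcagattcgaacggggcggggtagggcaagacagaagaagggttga
Sc5d: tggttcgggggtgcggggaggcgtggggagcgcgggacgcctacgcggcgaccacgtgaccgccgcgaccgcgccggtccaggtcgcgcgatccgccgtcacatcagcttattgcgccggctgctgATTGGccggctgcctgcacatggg
Elovl6: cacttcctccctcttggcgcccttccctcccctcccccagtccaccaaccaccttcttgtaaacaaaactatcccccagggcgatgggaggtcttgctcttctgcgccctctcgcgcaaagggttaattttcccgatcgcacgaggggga

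Library totals ran from 2080636 to 4477283 counts (median 3774431). Levels are given as CPM, counts scaled to a common library size with TMM factors. The lowest count of any library was 1 for Acss2, 3 for Mvd, 5 for Dhcr7, 7 for Fads2 and 8 for Acat2, Idi1 and Fdps, so these genes are the least precisely measured. Epithelial and immune markers were low, and markers of several other cell types moved with the groups. The 9 epithelial markers summed to 6.03 to 10.3 CPM in untreated libraries, 26.0 to 32.2 at BLM day 7, 4.70 to 5.65 at BLM day 14, 6.72 to 10.6 at BLM day 63, 23.8 to 31.9 at SiO2 day 7, 6.40 to 7.73 at SiO2 day 14 and 3.12 to 5.26 at SiO2 day 63. Most of the day 7 sums was Sftpc and Sftpb. Sftpc was at 2.01 to 4.21 CPM untreated, 9.82 to 15.4 at BLM day 7 and 8.35 to 13.5 at SiO2 day 7. Sftpb was at 0.936 to 1.51, 9.24 to 10.5 and 6.38 to 10.0 in the same groups. In each day 7 group edgeR called 2 of 2 tested epithelial markers higher than untreated. Lamp3 was at 0 in 6 of the 7 groups and at 0.502 to 0.531 CPM at SiO2 day 7. Cdh1 and Epcam were each at 0 in at least 2 groups. The 8 myeloid markers in the tables, of 10 listed, summed to 6.22 to 8.90 CPM untreated, 16.4 to 24.7, 12.2 to 17.3 and 5.11 to 10.2 after BLM, and 14.7 to 16.8, 26.2 to 38.0 and 34.4 to 37.8 after SiO2 by day. Most of the SiO2 day 63 sum was Tyrobp (15.8 to 20.8 CPM) and Cd14 (13.6 to 15.5), while Ptprc, Fcer1g, Cd68 and Csf1r were at 0 to 1.06 there. The 5 lymphocyte markers in the tables, of 7 listed, summed to 4.92 to 10.8 CPM untreated, 33.0 to 54.8, 9.40 to 15.9 and 4.0 to 6.22 after BLM, and 30.1 to 72.7, 25.3 to 36.0 and 34.9 to 46.3 after SiO2, with the B-cell marker Cd79b at 0 in every group but SiO2 day 63. In all treated libraries most of that sum was the chemokine gene Ccl5, at 2.81 to 4.77 CPM untreated, 29.5 to 52.5 at BLM day 7 and 29.6 to 72.1 at SiO2 day 7. The T-cell gene Cd3e and the B-cell gene Cd79a were at 0 in both day 7 groups, and Cd3d was at 0.259 to 7.49 CPM untreated, 2.32 to 3.96 at BLM day 7 and 0.502 to 1.59 at SiO2 day 7. The 6 mesothelial markers were not low: they summed to 515 to 640.0 CPM untreated, 269 to 375, 385 to 439.9 and 354 to 431 after BLM, and 126 to 179, 395 to 515 and 222 to 254 after SiO2, with none at 0 over a whole group. Most of this sum was Upk1b, at 438 to 523 CPM untreated and 88.3 to 123 at SiO2 day 7, while Msln was at 14.8 to 24.8 untreated, 21.2 to 42.7 at BLM day 7 and 10.1 to 14.0 at SiO2 day 7. The 8 pericyte and smooth muscle markers summed to 18.4 to 27.2 CPM untreated, 40.04 to 56.3, 96.1 to 104 and 29.9 to 43.1 after BLM, and 89.0 to 116, 48.4 to 75.7 and 81.5 to 96.6 after SiO2. Most of this sum was Pdgfrb, which fibroblasts also express, at 12.4 to 21.5 CPM untreated and 66.4 to 83.5 at SiO2 day 7, and Mcam, Rgs5 and Cnn1 were at 0 in the untreated libraries. The 7 endothelial markers summed to 22.6 to 31.4 CPM untreated, 23.5 to 25.2, 16.7 to 24.0 and 12.7 to 19.9 after BLM, and 8.10 to 14.3, 17.5 to 30.6 and 18.7 to 22.1 after SiO2, with Cdh5 at 0 in every group but SiO2 day 63. They did not move together. Tek was at 18.8 to 22.5 CPM untreated, 6.02 to 9.29 at BLM day 7 and 2.13 to 10.0 at SiO2 day 7. Plvap was at 0.468 to 1.30 untreated, 6.96 to 12.7 at BLM day 7 and 2.01 to 3.54 at SiO2 day 7. The adipocyte marker Plin1 was at 0 in all groups but SiO2 day 7. Fibroblast markers summed to 17843 to 19888 CPM in untreated libraries, 19488 to 22146, 25506 to 27144 and 16483 to 18179 after BLM, and 25648.5 to 30301, 27921 to 29088 and 20353 to 22422 after SiO2. At SiO2 day 7 all libraries lay above the untreated ones for Col1a1, Col1a2 and Col3a1 and below them for Dcn and Pdgfra, while Lum overlapped them. The part of these cells in the results that follow was not tested. In bulk libraries, fewer cells that express a gene and less RNA per cell cannot be told apart.

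Many sterol and fatty acid synthesis genes were higher on day 7 in both models, and on day 63, 13 of the 32 were higher after SiO2 and 2 after BLM. Here a gene is said to rise or fall where its difference from the untreated libraries passed an adjusted p of 0.05 in edgeR's quasi-likelihood test, and changes are log2 fold changes ± standard error (n = 3 libraries per group). At BLM day 7, 16 of 32 rose and 1 fell, where 31.6% of all tested genes were called, 16.7% higher and 14.9% lower. At BLM day 14, 5 of 32 rose and 6 fell, where 39.3% of all tested genes were called, 20.7% higher and 18.5% lower. At BLM day 63, 2 of 32 rose and 2 fell, where 11.5% of all tested genes were called, 6.02% higher and 5.48% lower. At SiO2 day 7, 15 of 32 rose and 2 fell, where 44.1% of all tested genes were called, 23.4% higher and 20.6% lower. At SiO2 day 14, 11 of 32 rose and 1 fell, where 24.1% of all tested genes were called, 13.6% higher and 10.5% lower. At SiO2 day 63, 13 of 32 rose and 1 fell, where 27.8% of all tested genes were called, 15.3% higher and 12.5% lower. The share that rose was 50.0% at BLM day 7, 46.9% at SiO2 day 7, 34.4% at SiO2 day 14 and 40.6% at SiO2 day 63, each above the background of risers. The share called at BLM day 14 (34.4%) and BLM day 63 (12.5%) was near the background. The BLM day 63 count was 1 without untreated replicate 1 or BLM day 63 replicate 2 or 3 and 2 without untreated replicate 2 or BLM day 63 replicate 1, the SiO2 day 7 count 11 without SiO2 day 7 replicate 1 and the SiO2 day 14 count 7 without SiO2 day 14 replicate 1. In 1 joint edgeR test of the 6 differences from untreated together, 23 of the 32 genes passed, against 55.5% of all tested genes. The 6 comparisons share the untreated libraries.

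Proliferation genes moved with some of these groups. Of 13 tested, 13 rose at BLM day 7, 12 at BLM day 14, 0 at BLM day 63, 13 at SiO2 day 7, 1 at SiO2 day 14 and 2 at SiO2 day 63. Their summed level was 26.7 to 36.7 CPM in untreated libraries, 268 to 321, 118 to 237 and 23.1 to 32.4 at BLM day 7, 14 and 63, and 294 to 417, 40.3 to 76.1 and 44.7 to 59.7 at SiO2 day 7, 14 and 63. The synthesis genes rose most often at both day 7 groups, where the proliferation sum was highest. At SiO2 day 63, 13 of the 32 rose with 2 of 13 proliferation genes called higher, and at BLM day 14, 5 of 32 rose with 12 of 13. The part of proliferation in these changes was not tested.

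**Figure D1:**
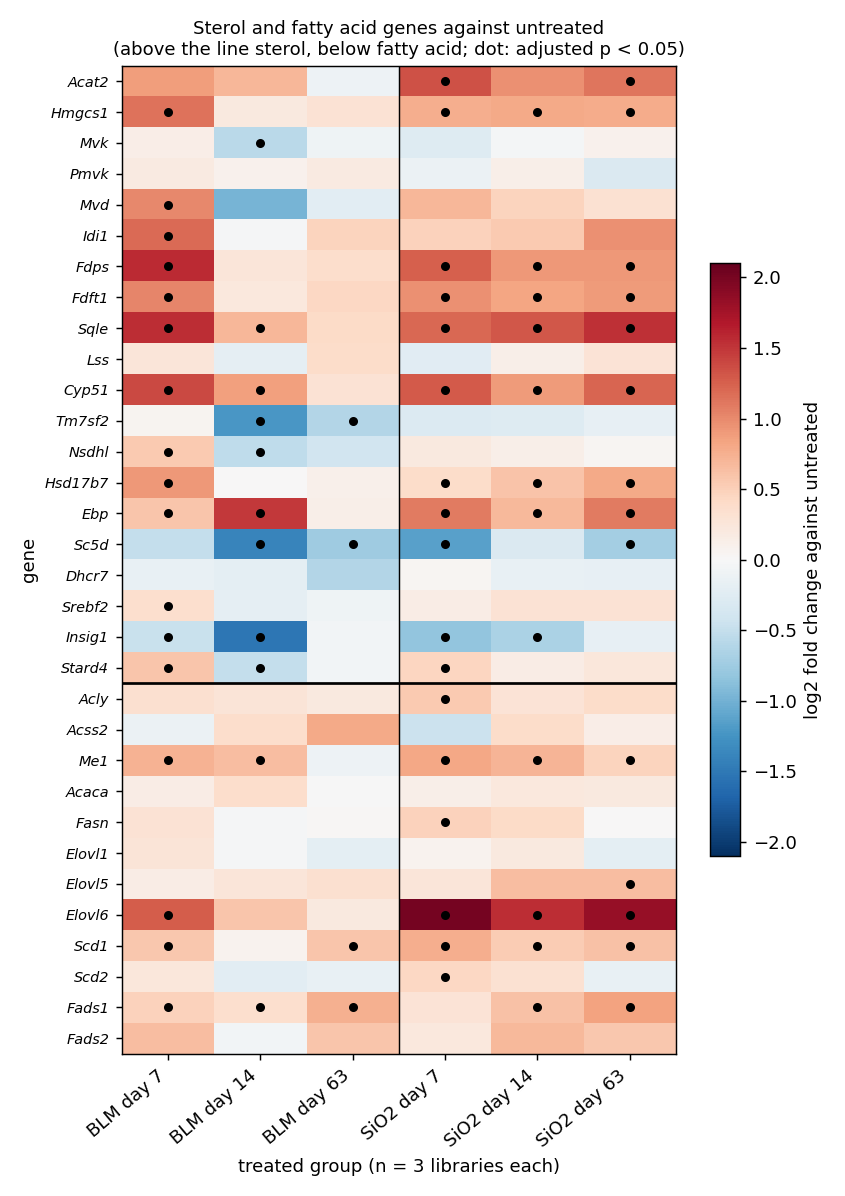
Log2 fold change of the 32 genes (rows, by role) in each of the 6 treated groups against the untreated libraries (columns), red for higher and blue for lower, with a dot on those that passed an adjusted p of 0.05 in edgeR. Dots stand mostly on red cells, with 16 of 32 called higher at BLM day 7 and 15 of 32 at SiO2 day 7.

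In the mevalonate pathway, Fdps, which joins isoprenoid units into farnesyl diphosphate, and Hmgcs1 were the genes called most often, each in 4 of 6 comparisons. Of the 7, 4 rose at BLM day 7, 3 at SiO2 day 7, 2 at SiO2 day 14 and 3 at SiO2 day 63, and 1 (Mvk) fell at BLM day 14.

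Fdps (chromosome 3, 89093588 to 89101959) counted 6.99, 7.03 and 3.75 CPM in the untreated libraries, 22.1, 18.8 and 14.3 at BLM day 7, 6.36, 10.5 and 5.53 at BLM day 14 and 8.71, 4.88 and 10.2 at BLM day 63. After SiO2 Fdps counted 16.3, 11.4 and 17.0 CPM at day 7, 13.7, 11.2 and 10.4 at day 14 and 13.7, 5.86 and 15.4 at day 63. All 3 libraries of BLM day 7, SiO2 day 7 and SiO2 day 14 lay above all 3 untreated ones, while SiO2 day 63 and BLM day 63 overlapped them. Fdps rose by 1.56 ± 0.31 (adjusted p = 2.28e-04) at BLM day 7 and by 1.26 ± 0.31 (adjusted p = 0.00153) at SiO2 day 7. The changes were 0.91 ± 0.33 at SiO2 day 14 and 0.91 ± 0.32 at SiO2 day 63. Fdps did not pass at SiO2 day 14 without untreated replicate 1, 2 or 3 or SiO2 day 14 replicate 1 or 2 or with upper quartile scaling (adjusted p up to 0.136). Fdps missed the threshold at SiO2 day 63 without untreated replicate 1, 2 or 3 or SiO2 day 63 replicate 1 or 3 or with upper quartile scaling (adjusted p up to 0.206). Exons of Gm43738, absent from the tables, overlap the 3′ end of Fdps on the same strand.

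Hmgcs1 encodes the cytosolic synthase of HMG-CoA. Hmgcs1 (chromosome 13, 119690379 to 119708260) counted 7.51, 3.77 and 7.96 CPM in the untreated libraries, 17.1, 12.9 and 10.8 at BLM day 7, 6.71, 9.26 and 5.53 at BLM day 14 and 8.21, 8.61 and 6.23 at BLM day 63. After SiO2 Hmgcs1 counted 12.0, 9.56 and 9.87 CPM at day 7, 12.8, 10.9 and 8.75 at day 14 and 10.5, 10.6 and 10.9 at day 63. The 4 groups BLM day 7 and SiO2 day 7, 14 and 63 lay wholly above the untreated libraries. Hmgcs1 rose by 1.13 ± 0.26 (adjusted p = 0.00125) at BLM day 7, and its changes at SiO2 day 7, 14 and 63 were 0.76 ± 0.27, 0.79 ± 0.27 and 0.78 ± 0.27. The calls of Hmgcs1 at SiO2 day 7, SiO2 day 14 and SiO2 day 63 were each lost in at least 1 of the fits without untreated replicate 2, SiO2 day 7 replicate 1, SiO2 day 14 replicate 1 or 2 or SiO2 day 63 replicate 1, 2 or 3 or with DESeq2, with upper quartile scaling or fitted on the 2 groups alone (adjusted p up to 0.247).

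Acat2 condenses acetyl-CoA into acetoacetyl-CoA at the head of the pathway. Acat2 (chromosome 17, 12942890 to 12960747) counted 3.37, 2.51 and 3.75 CPM in the untreated libraries, 5.80, 6.07 and 5.39 at BLM day 7, 6.00, 3.59 and 5.80 at BLM day 14 and 3.48, 2.30 and 2.89 at BLM day 63. After SiO2 Acat2 counted 11.5, 6.11 and 6.08 CPM at day 7, 7.13, 7.46 and 3.89 at day 14 and 6.04, 9.58 and 5.12 at day 63. Its BLM day 7 libraries and all its SiO2 libraries exceeded the untreated ones, with SiO2 day 7 replicate 1 highest. It rose by 1.33 ± 0.35 (adjusted p = 0.00228) at SiO2 day 7 and by 1.12 ± 0.35 at SiO2 day 63, and was 0.88 ± 0.37 (adjusted p = 0.0699) at BLM day 7. Acat2 lost its call at SiO2 day 63 without untreated replicate 2 or SiO2 day 63 replicate 2 (adjusted p up to 0.127). Acat3 is a closely related copy, and the counting could split reads between them.

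Mvd removes a carboxyl group to give isopentenyl diphosphate, and Idi1 isomerises it. Mvd (chromosome 8, 122433601 to 122443422) counted 2.85, 2.26 and 3.75 CPM in the untreated libraries, 4.35, 6.87 and 6.02 at BLM day 7, 1.06, 2.39 and 0.829 at BLM day 14 and 2.24, 2.58 and 2.45 at BLM day 63. After SiO2 Mvd counted 6.52, 2.66 and 4.56 CPM at day 7, 5.94, 3.20 and 2.92 at day 14 and 4.73, 2.66 and 3.34 at day 63. All BLM day 7 libraries of Mvd lay above the untreated ones, and 2 of the 3 BLM day 14 libraries lay below them. Idi1 (chromosome 13, 8885501 to 8892451) counted 3.11, 2.26 and 3.75 CPM in the untreated libraries, 9.58, 6.60 and 3.80 at BLM day 7, 3.53, 2.99 and 2.21 at BLM day 14 and 3.73, 3.16 and 5.11 at BLM day 63. After SiO2 Idi1 counted 5.77, 3.72 and 2.78 CPM at day 7, 5.05, 4.26 and 3.64 at day 14 and 8.67, 3.73 and 4.90 at day 63. All BLM day 7 Idi1 libraries lay above the untreated ones, by a small margin for replicate 3. At BLM day 7 the changes were 1.01 ± 0.39 (adjusted p = 0.046) for Mvd and 1.18 ± 0.39 (adjusted p = 0.0181) for Idi1. Mvd was not called at BLM day 7 without untreated replicate 1 or 2 or BLM day 7 replicate 2 or 3 or with DESeq2, with upper quartile scaling or with no low-count filter (adjusted p up to 0.168). Idi1 did not pass at BLM day 7 without untreated replicate 2 or BLM day 7 replicate 1 (adjusted p up to 0.14). Mvk, mevalonate kinase, fell only at BLM day 14 (-0.56 ± 0.16) among the 6 comparisons, and Pmvk, the next kinase, passed in none (-0.30 to 0.19; unadjusted p under 0.05 in 0). Mvk missed the threshold at BLM day 14 without untreated replicate 1 (adjusted p up to 0.0881).

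Squalene epoxidase, Sqle, one of the rate-limiting steps, rose in 5 of 6 comparisons, by nearly the same amount at BLM day 7 and SiO2 day 63. Sqle (chromosome 15, 59315077 to 59331192) counted 17.6, 12.3 and 8.90 CPM in the untreated libraries, 43.2, 39.6 and 34.5 at BLM day 7, 20.8, 24.8 and 19.9 at BLM day 14 and 17.7, 14.6 and 20.2 at BLM day 63. After SiO2 Sqle counted 33.4, 30.6 and 29.4 CPM at day 7, 40.4, 31.4 and 27.9 at day 14 and 51.2, 35.7 and 30.3 at day 63. Every library of BLM day 7, BLM day 14 and the 3 SiO2 groups exceeded the highest untreated library, and BLM day 63 overlapped the untreated ones. Sqle rose by 1.54 ± 0.21 (adjusted p = 8.97e-07) at BLM day 7, 0.70 ± 0.22 at BLM day 14, 1.21 ± 0.21 at SiO2 day 7, 1.30 ± 0.21 at SiO2 day 14 and 1.53 ± 0.21 (adjusted p = 8.79e-07) at SiO2 day 63, and was 0.39 ± 0.22 (adjusted p = 0.294) at BLM day 63. Sqle lost its call at BLM day 14 without untreated replicate 2 or 3 or BLM day 14 replicate 2 (adjusted p up to 0.0697).

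Fdft1 is squalene synthase, the first step committed to sterols. Fdft1 (chromosome 14, 63145150 to 63179578) counted 31.9, 20.1 and 16.9 CPM in the untreated libraries, 48.2, 53.6 and 41.2 at BLM day 7, 26.1, 33.5 and 22.4 at BLM day 14 and 30.9, 27.8 and 35.8 at BLM day 63. After SiO2 Fdft1 counted 51.2, 42.8 and 44.0 CPM at day 7, 55.6, 33.3 and 36.7 at day 14 and 58.9, 37.8 and 35.2 at day 63. BLM day 7 and all SiO2 groups lay above the untreated libraries and BLM day 14 overlapped them. Fdft1 rose by 1.02 ± 0.22 (adjusted p = 4.99e-04) at BLM day 7, 0.97 ± 0.22 at SiO2 day 7, 0.82 ± 0.22 at SiO2 day 14 and 0.90 ± 0.22 at SiO2 day 63. Fdft1 was not called at SiO2 day 14 without SiO2 day 14 replicate 1 (adjusted p up to 0.0761). Its 3′ end is overlapped on the opposite strand by Ctsb, which has 67993 counts in all libraries to 2913 for Fdft1 and rose in all 6 comparisons (0.45, 0.87, 0.61, 0.74, 0.81, 1.02 in the order BLM day 7, 14 and 63, then SiO2 day 7, 14 and 63). Whether the counting used strand was not given, so reads of the 2 genes cannot be told apart here. Lss, lanosterol synthase, passed in none of the 6 comparisons (log2 fold change -0.24 to 0.38).

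**Figure D2:**
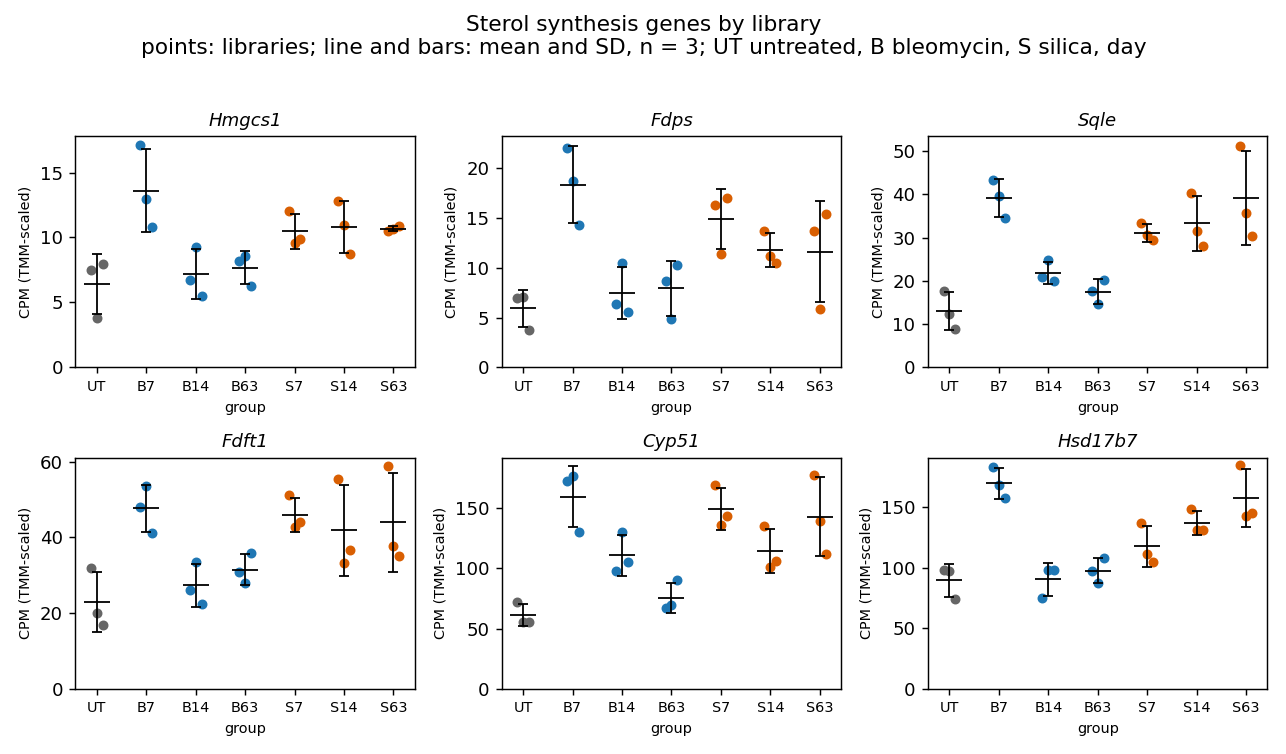
CPM per library (points), mean (line) and SD (bars) of 6 sterol genes, with the untreated (UT), BLM (B) and SiO2 (S) groups along the x axis by day. The points of BLM day 7 and of SiO2 day 7, 14 and 63 lie above the untreated points for Sqle and Cyp51.

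Among the 7 genes between lanosterol and cholesterol the steps parted: Cyp51, the lanosterol demethylase, Ebp, a sterol isomerase, and Hsd17b7, a ketoreductase, rose, while Sc5d, a sterol desaturase, and Tm7sf2, a sterol reductase, fell in some groups and rose in none. Of the 7, 4 rose and 0 fell at BLM day 7, 2 rose and 3 fell at BLM day 14, and 0 rose and 2 fell at BLM day 63. After SiO2 3 rose and 1 fell at day 7, 3 and 0 at day 14, and 3 and 1 at day 63.

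Cyp51 (chromosome 5, 4081145 to 4104746) counted 71.7, 55.8 and 55.7 CPM in the untreated libraries, 172, 177 and 130.2 at BLM day 7, 97.8, 130.3 and 105 at BLM day 14 and 67.4, 69.7 and 90.1 at BLM day 63. After SiO2 Cyp51 counted 169.6, 136 and 144 CPM at day 7, 135, 101 and 106 at day 14 and 178, 139.8 and 112 at day 63. Every treated group but BLM day 63 lay above the untreated libraries. Cyp51 rose by 1.38 ± 0.16 (adjusted p = 9.91e-08) at BLM day 7, 0.86 ± 0.17 at BLM day 14, 1.29 ± 0.16 (adjusted p = 1.38e-07) at SiO2 day 7, 0.89 ± 0.17 at SiO2 day 14 and 1.22 ± 0.16 at SiO2 day 63, and the call held with every library left out in turn. Akap9 overlaps its 3′ end on the opposite strand, with log2 fold changes from -0.54 to -0.14 in the 6 comparisons.

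Hsd17b7 (chromosome 1, 169949535 to 169969241) counted 98.2, 97.0 and 74.0 CPM in the untreated libraries, 183, 168 and 158 at BLM day 7, 74.9, 98.3 and 98.4 at BLM day 14 and 97.3, 87.0 and 108 at BLM day 63. After SiO2 Hsd17b7 counted 137, 112 and 105 CPM at day 7, 148, 131 and 131 at day 14 and 185, 142 and 145 at day 63. BLM day 7 and the 3 SiO2 groups lay wholly above the untreated libraries, and BLM day 14 overlapped them. Hsd17b7 rose by 0.91 ± 0.13 (adjusted p = 3.40e-06) at BLM day 7, 0.38 ± 0.13 at SiO2 day 7, 0.60 ± 0.13 at SiO2 day 14 and 0.80 ± 0.13 at SiO2 day 63. Hsd17b7 did not pass at SiO2 day 7 without untreated replicate 3 or SiO2 day 7 replicate 1 or with upper quartile scaling (adjusted p up to 0.165).

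Ebp (chromosome X, 8185329 to 8193512) counted 9.07, 13.3 and 8.90 CPM in the untreated libraries, 16.2, 16.6 and 14.9 at BLM day 7, 33.6, 25.1 and 31.2 at BLM day 14 and 9.96, 10.6 and 14.0 at BLM day 63. After SiO2 Ebp counted 22.1, 19.9 and 25.8 CPM at day 7, 20.2, 18.1 and 13.1 at day 14 and 18.1, 25.6 and 24.3 at day 63. BLM day 14 held the highest values, all above every library of BLM day 7 and 63. Ebp rose by 1.49 ± 0.21 (adjusted p = 7.46e-07) at BLM day 14, 1.09 ± 0.21 (adjusted p = 7.61e-05) at SiO2 day 7 and 1.09 ± 0.21 at SiO2 day 63. The changes at BLM day 7 and SiO2 day 14 were 0.58 ± 0.22 and 0.68 ± 0.22. Ebp missed the threshold at BLM day 7 without untreated replicate 1 or 3 or BLM day 7 replicate 1, 2 or 3 or with DESeq2, with upper quartile scaling or fitted on the 2 groups alone (adjusted p up to 0.178). Ebp lost its call at SiO2 day 14 without untreated replicate 1 or 3 or SiO2 day 14 replicate 1 or 2 (adjusted p up to 0.129).

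Sc5d (chromosome 9, 42251595 to 42264256) counted 16.6, 15.6 and 17.3 CPM in the untreated libraries, 13.1, 10.8 and 10.8 at BLM day 7, 6.71, 7.17 and 4.97 at BLM day 14 and 11.2, 9.18 and 8.89 at BLM day 63. After SiO2 Sc5d counted 8.03, 9.56 and 4.81 CPM at day 7, 13.4, 13.1 and 13.4 at day 14 and 10.8, 8.52 and 10.7 at day 63. Every library of all 6 treated groups lay below the lowest untreated one. Sc5d fell at BLM day 14 (-1.39 ± 0.23, adjusted p = 1.38e-05) and at SiO2 day 7 (-1.14 ± 0.22, adjusted p = 7.75e-05). The changes at BLM day 63 and SiO2 day 63 were -0.75 ± 0.21 and -0.71 ± 0.21, also called, and those at BLM day 7 and SiO2 day 14 were -0.51 ± 0.21 (adjusted p = 0.0636) and -0.31 ± 0.20 (adjusted p = 0.3). Sc5d was not called at BLM day 63 without untreated replicate 1 or BLM day 63 replicate 2 or 3 (adjusted p up to 0.0832). Sc5d did not pass at SiO2 day 63 without SiO2 day 63 replicate 2 (adjusted p up to 0.0558).

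Tm7sf2 (chromosome 19, 6062821 to 6068373) counted 41.2, 45.2 and 38.4 CPM in the untreated libraries, 58.6, 33.3 and 38.7 at BLM day 7, 13.8, 25.7 and 13.8 at BLM day 14 and 27.1, 27.0 and 27.8 at BLM day 63. After SiO2 Tm7sf2 counted 33.9, 41.2 and 27.6 CPM at day 7, 34.2, 32.2 and 37.7 at day 14 and 43.9, 35.1 and 32.1 at day 63. BLM day 14 and BLM day 63 lay wholly below the untreated libraries. Tm7sf2 was -1.23 ± 0.21 (adjusted p = 2.56e-05) at BLM day 14 and -0.61 ± 0.20 at BLM day 63, and passed in none of the 3 SiO2 comparisons. Tm7sf2 missed the threshold at BLM day 63 without untreated replicate 1 or 2 or BLM day 63 replicate 1, 2 or 3 (adjusted p up to 0.147). Nsdhl, a dehydrogenase that takes part in sterol demethylation, was 0.55 ± 0.19 at BLM day 7, where it rose, and -0.53 ± 0.19 at BLM day 14, where it fell. Dhcr7, the last reductase of the pathway, passed in none of the 6 comparisons. Nsdhl lost its call at BLM day 7 without untreated replicate 2 or 3 or BLM day 7 replicate 1 or with DESeq2 (adjusted p up to 0.225). Nsdhl was not called at BLM day 14 without untreated replicate 1 or BLM day 14 replicate 1 or 3 or with DESeq2 (adjusted p up to 0.214).

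**Figure D3:**
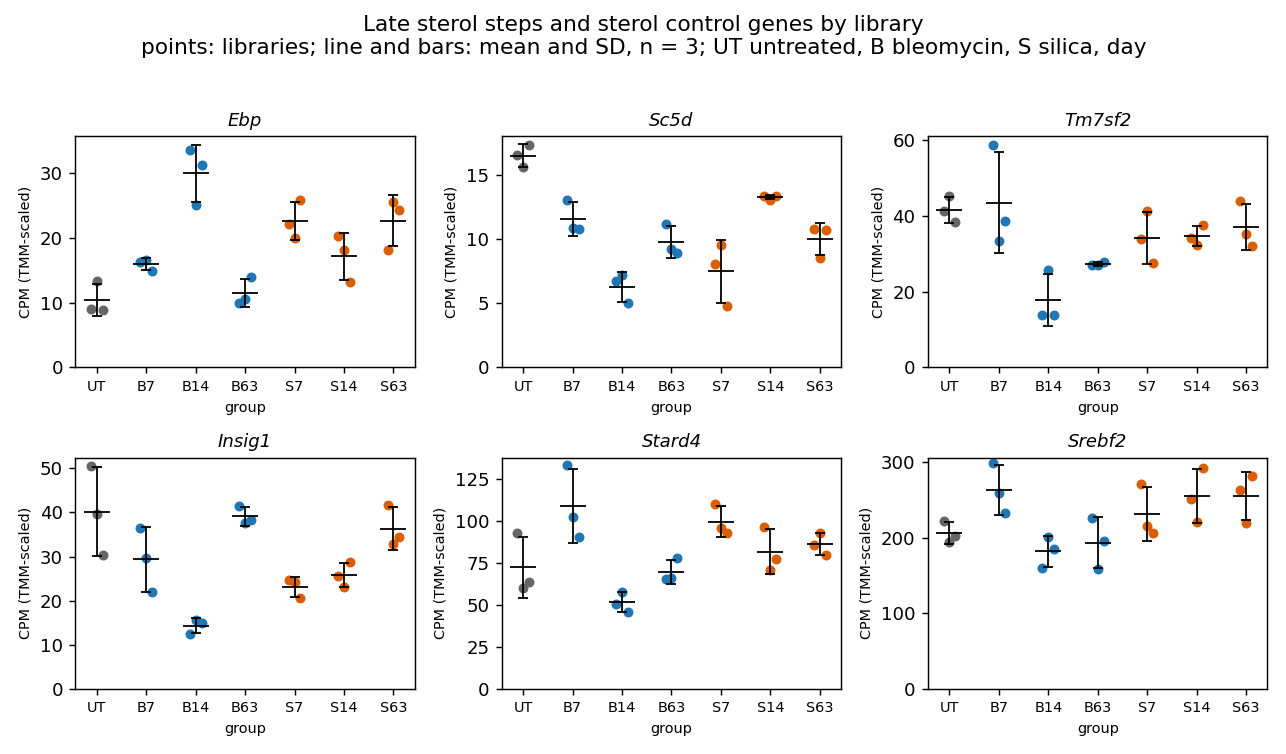
CPM per library (points), mean (line) and SD (bars) of late sterol and sterol control genes by group and day (UT untreated, B BLM, S SiO2). Insig1, Sc5d and Tm7sf2 are lowest at BLM day 14, where Ebp is highest; for Tm7sf2 the 3 libraries lie below the untreated libraries.

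Of the genes that control sterol synthesis or move sterol, Stard4 rose on day 7 in both models and Srebf2 at BLM day 7. Insig1, which holds SREBP precursors back in the endoplasmic reticulum, fell in 4 of 6 comparisons, and most at BLM day 14. Insig1 (chromosome 5, 28071363 to 28078662) counted 50.5, 39.7 and 30.4 CPM in the untreated libraries, 36.6, 29.6 and 21.9 at BLM day 7, 12.4, 15.5 and 14.9 at BLM day 14 and 41.6, 37.6 and 38.2 at BLM day 63. After SiO2 Insig1 counted 24.6, 24.2 and 20.5 CPM at day 7, 25.6, 23.2 and 28.7 at day 14 and 41.8, 32.7 and 34.5 at day 63. BLM day 14, SiO2 day 7 and SiO2 day 14 lay below the untreated libraries, and BLM day 63 and SiO2 day 63 overlapped them. Insig1 was -1.51 ± 0.19 (adjusted p = 1.44e-07) at BLM day 14, -0.83 ± 0.17 (adjusted p = 2.60e-04) at SiO2 day 7, -0.47 ± 0.17 at BLM day 7 and -0.66 ± 0.17 at SiO2 day 14. Insig1 did not pass at BLM day 7 without untreated replicate 1 or 2 or BLM day 7 replicate 2 or 3 or with no low-count filter or fitted on the 2 groups alone (adjusted p up to 0.303). Insig1 missed the threshold at SiO2 day 14 without untreated replicate 1 (adjusted p up to 0.0824).

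Stard4 carries cholesterol between membranes. Stard4 (chromosome 18) counted 93.0, 60.0 and 63.7 CPM in the untreated libraries, 133, 102 and 90.6 at BLM day 7, 50.5, 57.7 and 45.9 at BLM day 14 and 65.2, 65.7 and 77.6 at BLM day 63. After SiO2 Stard4 counted 109.9, 95.6 and 92.9 CPM at day 7, 96.6, 70.6 and 77.5 at day 14 and 85.4, 92.9 and 79.9 at day 63. BLM day 7 and SiO2 day 7 were high but overlapped the highest untreated library, and BLM day 14 lay below all untreated libraries. Stard4 rose by 0.58 ± 0.15 (adjusted p = 0.00368) at BLM day 7 and by 0.45 ± 0.15 at SiO2 day 7, and was -0.50 ± 0.16 at BLM day 14. Stard4 lost its call at BLM day 14 without untreated replicate 1 or BLM day 14 replicate 3 (adjusted p up to 0.213). Stard4 was not called at SiO2 day 7 without untreated replicate 2 or 3 or SiO2 day 7 replicate 1 or with upper quartile scaling (adjusted p up to 0.128). Srebf2, which encodes the SREBP that drives sterol genes, rose at BLM day 7 (0.35 ± 0.13) and passed in none of the other 5 comparisons (-0.18 to 0.30). Srebf2 did not pass at BLM day 7 without untreated replicate 2 or 3 or BLM day 7 replicate 1 or 2 or with DESeq2, with RLE size factors or with upper quartile scaling (adjusted p up to 0.204).

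In the fatty acid branch, Me1 (malic enzyme, a source of NADPH) and Elovl6 were called in most groups, while of the chain-building genes Fasn was called in 1 comparison and Acaca in none. Me1 (chromosome 9, 86581371 to 86695953) counted 92.5, 90.9 and 109 CPM in the untreated libraries, 150.0, 167 and 164 at BLM day 7, 146, 160.5 and 149 at BLM day 14 and 89.4, 101 and 80.9 at BLM day 63. After SiO2 Me1 counted 170.1, 180.1 and 163 CPM at day 7, 162, 160.4 and 156 at day 14 and 139, 134 and 128 at day 63. All groups but BLM day 63 lay above the untreated libraries. Me1 rose by 0.73 ± 0.10 (adjusted p = 1.61e-06) at BLM day 7, 0.65 ± 0.10 at BLM day 14, 0.82 ± 0.10 (adjusted p = 8.86e-08) at SiO2 day 7, 0.72 ± 0.10 at SiO2 day 14 and 0.46 ± 0.10 at SiO2 day 63, and was -0.10 ± 0.10 (adjusted p = 0.608) at BLM day 63.

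Acly splits citrate to supply acetyl-CoA. Acly (chromosome 11, 100476353 to 100528000) counted 22.5, 30.9 and 40.3 CPM in the untreated libraries, 44.7, 36.7 and 33.6 at BLM day 7, 40.3, 43.6 and 27.4 at BLM day 14 and 32.1, 38.2 and 34.7 at BLM day 63. After SiO2 Acly counted 52.2, 42.5 and 39.2 CPM at day 7, 37.7, 36.0 and 37.4 at day 14 and 46.0, 33.3 and 40.5 at day 63. Untreated values ran over a wide range, and only the SiO2 day 7 change passed (0.55 ± 0.18, adjusted p = 0.0137). Acly missed the threshold at SiO2 day 7 without untreated replicate 1 or SiO2 day 7 replicate 1 (adjusted p up to 0.153). Acss2, which makes acetyl-CoA from acetate, passed in none of the 6 comparisons and had the lowest counts of the 32.

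Fasn is fatty acid synthase and Acaca the carboxylase that supplies its malonyl-CoA. Fasn (chromosome 11, 120805846 to 120824547) counted 22.3, 25.4 and 22.0 CPM in the untreated libraries, 31.9, 25.9 and 28.8 at BLM day 7, 28.6, 21.2 and 19.6 at BLM day 14 and 24.4, 22.4 and 24.5 at BLM day 63. After SiO2 Fasn counted 35.1, 29.0 and 34.2 CPM at day 7, 28.8, 32.0 and 31.8 at day 14 and 25.5, 18.4 and 26.0 at day 63. BLM day 7 and SiO2 day 7 and 14 lay above the untreated libraries. The change was 0.30 ± 0.16 (adjusted p = 0.159) at BLM day 7, 0.40 ± 0.16 (adjusted p = 0.0648) at SiO2 day 14 and 0.49 ± 0.16 (adjusted p = 0.0127) at SiO2 day 7, the only call. Fasn lost its call at SiO2 day 7 without untreated replicate 1 or SiO2 day 7 replicate 1 (adjusted p up to 0.0572). Acaca (chromosome 11, 84129672 to 84401651) counted 11.9, 10.6 and 14.5 CPM in the untreated libraries, 12.5, 13.2 and 14.9 at BLM day 7, 17.3, 15.8 and 14.1 at BLM day 14 and 11.0, 14.9 and 10.5 at BLM day 63. After SiO2 Acaca counted 15.0, 10.9 and 13.4 CPM at day 7, 14.0, 18.4 and 9.96 at day 14 and 12.9, 13.0 and 15.8 at day 63. Each treated group of Acaca overlapped the untreated libraries, and its log2 fold changes ran from -0.01 to 0.38, none called (unadjusted p under 0.05 in 0).

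Elovl6, the elongase that lengthens palmitate-length chains, had the highest log2 fold change of the 32 genes in any of the 6 comparisons. Elovl6 (chromosome 3, 129532355 to 129638495) counted 8.29, 6.78 and 9.36 CPM in the untreated libraries, 23.2, 19.8 and 14.6 at BLM day 7, 8.83, 14.0 and 12.7 at BLM day 14 and 10.7, 7.75 and 8.89 at BLM day 63. After SiO2 Elovl6 counted 31.6, 42.2 and 22.8 CPM at day 7, 30.9, 22.7 and 17.3 at day 14 and 33.6, 24.2 and 27.6 at day 63. BLM day 7 and all 3 SiO2 groups lay above the untreated libraries without overlap, and BLM day 14 and 63 overlapped them. Elovl6 rose by 1.27 ± 0.27 (adjusted p = 4.48e-04) at BLM day 7, 2.01 ± 0.25 (adjusted p = 1.02e-07) at SiO2 day 7, 1.55 ± 0.26 at SiO2 day 14 and 1.83 ± 0.25 at SiO2 day 63, and was 0.59 ± 0.29 (adjusted p = 0.108) at BLM day 14 and 0.20 ± 0.29 (adjusted p = 0.743) at BLM day 63.

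Elovl5 lengthens polyunsaturated chains. Elovl5 (chromosome 9, 77917364 to 77984519) counted 8.29, 7.79 and 9.36 CPM in the untreated libraries, 6.67, 12.7 and 8.56 at BLM day 7, 8.12, 10.8 and 10.8 at BLM day 14 and 9.71, 10.6 and 11.3 at BLM day 63. After SiO2 Elovl5 counted 7.52, 13.8 and 8.61 CPM at day 7, 12.2, 16.0 and 11.2 at day 14 and 13.4, 13.0 and 12.9 at day 63. BLM day 63 and SiO2 day 14 and 63 lay above the untreated libraries. The change was 0.64 ± 0.24 (adjusted p = 0.054) at SiO2 day 14 and 0.65 ± 0.24 (adjusted p = 0.046) at SiO2 day 63, the one call. Elovl5 was not called at SiO2 day 63 without untreated replicate 1, 2 or 3 or SiO2 day 63 replicate 1, 2 or 3 or with DESeq2, with RLE size factors, with upper quartile scaling or with no low-count filter (adjusted p up to 0.142). Elovl1, an elongase of very long chains, passed in none of the 6 comparisons, and Cdc20, a cell division gene, overlaps its 3′ end on the opposite strand.

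Fads1, a desaturase of polyunsaturated fatty acids, rose in 5 of 6 comparisons and was the one gene of the 32 that rose at BLM day 63 with every library left out in turn. Fads1 (chromosome 19, 10182888 to 10196877) counted 114, 108 and 93.6 CPM in the untreated libraries, 144, 148 and 150.2 at BLM day 7, 122, 159.6 and 125 at BLM day 14 and 166, 173 and 193 at BLM day 63. After SiO2 Fads1 counted 144, 128 and 114 CPM at day 7, 165, 151 and 172 at day 14 and 226, 165 and 179 at day 63. SiO2 day 7 touched the untreated range and the other 5 groups lay above it. Fads1 rose by 0.48 ± 0.12 at BLM day 7, 0.75 ± 0.12 (adjusted p = 1.03e-04) at BLM day 63, 0.62 ± 0.12 at SiO2 day 14 and 0.84 ± 0.12 (adjusted p = 3.27e-06) at SiO2 day 63, and by 0.36 ± 0.13 at BLM day 14. Fads1 did not pass at BLM day 14 without untreated replicate 3 or BLM day 14 replicate 2 or with upper quartile scaling (adjusted p up to 0.196).

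Scd1 and Scd2 are closely related stearoyl-CoA desaturases, so the split of reads between them is uncertain. Scd2 (chromosome 19, 44293674 to 44306864) counted 668, 609.9 and 474 CPM in the untreated libraries, 664, 763 and 639 at BLM day 7, 447, 616 and 442 at BLM day 14 and 576, 426 and 576 at BLM day 63. After SiO2 Scd2 counted 949.8, 706 and 708 CPM at day 7, 784, 696 and 708 at day 14 and 671, 455 and 454 at day 63. SiO2 day 7 was the highest group, and all 3 of its libraries exceeded the untreated ones. Scd2 rose by 0.43 ± 0.15 (adjusted p = 0.0234) at SiO2 day 7 and passed in no other comparison with untreated libraries. Scd2 missed the threshold at SiO2 day 7 without untreated replicate 3 or SiO2 day 7 replicate 1 or with upper quartile scaling (adjusted p up to 0.189). Scd1 rose by 0.57 ± 0.18 at BLM day 7, 0.58 ± 0.18 at BLM day 63, 0.76 ± 0.18 (adjusted p = 0.00102) at SiO2 day 7, 0.54 ± 0.18 at SiO2 day 14 and 0.61 ± 0.18 at SiO2 day 63. The calls of Scd1 at BLM day 7, BLM day 63, SiO2 day 14 and SiO2 day 63 were each lost in at least 1 of the fits without untreated replicate 1 or 2, BLM day 7 replicate 2, BLM day 63 replicate 1, 2 or 3, SiO2 day 14 replicate 1 or 2 or SiO2 day 63 replicate 1 or with upper quartile scaling (adjusted p up to 0.304). Fads2, the desaturase that acts before Fads1, passed in none of the 6 comparisons.

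**Figure D4:**
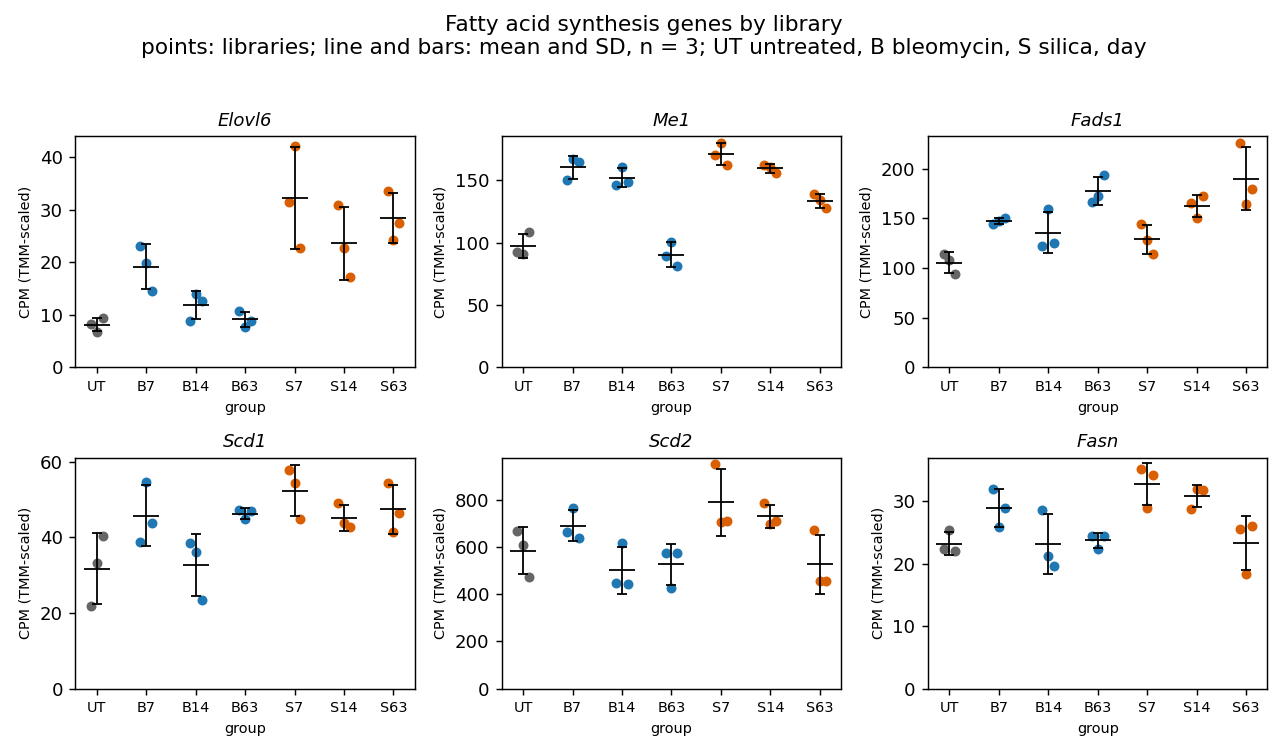
CPM per library (points), mean (line) and SD (bars) of 6 fatty acid genes by group and day (UT untreated, B BLM, S SiO2). For Elovl6 and Me1 the 3 libraries of BLM day 7 and of each SiO2 group lie above the 3 untreated ones, and for Fasn the BLM day 63 and SiO2 day 63 groups overlap them.

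The branches were compared by their counts and median changes. At BLM day 7, 12 of 20 sterol genes rose and 1 fell, with a median log2 fold change of 0.58, and 4 of 12 fatty acid genes rose and 0 fell, median 0.32, against 0.02 for all tested genes. At BLM day 14, 3 of 20 sterol genes rose and 6 fell, with a median log2 fold change of -0.11, and 2 of 12 fatty acid genes rose and 0 fell, median 0.26, against 0.02 for all tested genes. At BLM day 63, 0 of 20 sterol genes rose and 2 fell, with a median log2 fold change of 0.02, and 2 of 12 fatty acid genes rose and 0 fell, median 0.20, against 0.01 for all tested genes. At SiO2 day 7, 9 of 20 sterol genes rose and 2 fell, with a median log2 fold change of 0.42, and 6 of 12 fatty acid genes rose and 0 fell, median 0.36, against 0.04 for all tested genes. At SiO2 day 14, 7 of 20 sterol genes rose and 1 fell, with a median log2 fold change of 0.39, and 4 of 12 fatty acid genes rose and 0 fell, median 0.47, against 0.03 for all tested genes. At SiO2 day 63, 8 of 20 sterol genes rose and 1 fell, with a median log2 fold change of 0.32, and 5 of 12 fatty acid genes rose and 0 fell, median 0.43, against 0.02 for all tested genes. No fatty acid gene fell in any of these 6 comparisons, where 5.48% to 20.6% of all tested genes were called lower. The sterol genes that fell were Insig1, Sc5d, Tm7sf2, Mvk, Nsdhl and Stard4. The share of sterol genes that fell exceeded that of all tested genes only at BLM day 14 (18.5%) and BLM day 63 (5.48%). The share that rose lay below that of all tested genes at BLM day 14 (20.7%) in both branches. For the sterol genes it also lay below at BLM day 63 (6.02%), and elsewhere it lay above in both branches. The sterol median exceeded the fatty acid one by 0.26 at BLM day 7 and lay below it at BLM day 14, in each case also with any 1 library left out; at the other 4 groups the sign of the difference changed with 1 library left out. The branches were chosen by name and the difference between their medians was not tested. Without the suppliers of acetyl-CoA and NADPH and the non-enzymes, the difference was 0.57 at BLM day 7, -0.063 at BLM day 14 and 0.21 at SiO2 day 63, the last with its sign turned from -0.11.

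BLM and SiO2 were compared directly on each day. On day 7, 2 of the 32 genes differed, and on day 14 and 63 more did, nearly all higher after SiO2. On day 7, 1 of 32 was higher after SiO2, Elovl6 (0.74 ± 0.22, adjusted p = 0.0248), and 1 was lower, Hsd17b7 (-0.53 ± 0.13, adjusted p = 0.0062), against 10.4% of all genes called (5.29% higher, 5.1% lower). The median log2 difference was -0.33 for the sterol genes. Elovl6 lost its call without BLM day 7 replicate 2 or 3 or SiO2 day 7 replicate 2 (adjusted p up to 0.23). The count was 1 without BLM day 7 replicate 2 or 3, and with no low-count filter it was 4, 1 higher and 3 lower. The mesothelial sum was 269 to 375 CPM at BLM day 7 and 126 to 179 at SiO2 day 7. The pericyte and smooth muscle sum was 40.04 to 56.3 and 89.0 to 116. The endothelial sum was 23.5 to 25.2 and 8.10 to 14.3, and the fibroblast sum 19488 to 22146 and 25648.5 to 30301. The part of these lists in the difference was not tested.

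On day 14, 13 of 32 were higher after SiO2 and 1 lower, where 17.1% of all genes were called (9.06% higher and 8.03% lower). Of these, 11 of 20 were sterol genes, with a branch median of 0.59, and 2 of 12 fatty acid genes, median 0.33. Sc5d (1.08 ± 0.23), Tm7sf2 (0.96 ± 0.21), Insig1 (0.85 ± 0.20), Stard4 (0.67 ± 0.16) and Hsd17b7 (0.59 ± 0.13) were higher after SiO2, and Ebp (-0.81 ± 0.19, adjusted p = 0.00236) was lower. For Sc5d the adjusted p was 0.00104, and its 3 SiO2 day 14 libraries lay above its 3 BLM day 14 libraries. These 6 calls were kept with every library left out. The count was 7 without SiO2 day 14 replicate 1, 8 without BLM day 14 replicate 1 and 9 without BLM day 14 replicate 3. The other calls were Mvk, Mvd, Fdft1, Sqle, Nsdhl, Srebf2, Elovl6 and Scd2 (0.49 to 1.45). Each of these 8 missed the threshold in at least 1 of the fits without BLM day 14 replicate 1 or 3 or SiO2 day 14 replicate 1 or 3, fitted on the 2 groups alone, with RLE size factors, with upper quartile scaling or with DESeq2 (adjusted p up to 0.326). The proliferation sum was 118 to 237 CPM at BLM day 14 and 40.3 to 76.1 at SiO2 day 14. The pericyte and smooth muscle sum was 96.1 to 104 and 48.4 to 75.7. The myeloid sum was 12.2 to 17.3 and 26.2 to 38.0, and the lymphocyte sum 9.40 to 15.9 and 25.3 to 36.0. The epithelial sum was 4.70 to 5.65 and 6.40 to 7.73, and the fibroblast sum 25506 to 27144 and 27921 to 29088. The part of these lists in the difference was not tested.

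On day 63, 8 of 32 were higher after SiO2 and 0 lower, against 15.6% of all genes called (9.13% higher and 6.44% lower). Elovl6 (1.63 ± 0.24, adjusted p = 6.76e-06), Sqle (1.14 ± 0.19, adjusted p = 6.53e-05), Ebp (0.96 ± 0.20), Cyp51 (0.91 ± 0.16), Hsd17b7 (0.69 ± 0.13) and Me1 (0.57 ± 0.10) were higher, and for each of these 6 the 3 SiO2 libraries lay above the 3 BLM ones. Acat2 (1.23 ± 0.34) and Srebf2 (0.40 ± 0.13) were also called. Acat2 was not called without BLM day 63 replicate 2 or SiO2 day 63 replicate 2 (adjusted p up to 0.116). Srebf2 did not pass without BLM day 63 replicate 2 or 3 or SiO2 day 63 replicate 1 or 3 or with upper quartile scaling (adjusted p up to 0.251). The proliferation sum was 23.1 to 32.4 CPM at BLM day 63 and 44.7 to 59.7 at SiO2 day 63. The myeloid sum was 5.11 to 10.2 and 34.4 to 37.8, and the lymphocyte sum 4.0 to 6.22 and 34.9 to 46.3. The mesothelial sum was 354 to 431 and 222 to 254. The pericyte and smooth muscle sum was 29.9 to 43.1 and 81.5 to 96.6. The epithelial sum was 6.72 to 10.6 and 3.12 to 5.26, and the fibroblast sum 16483 to 18179 and 20353 to 22422. The part of these lists in the difference was not tested.

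**Figure D5:**
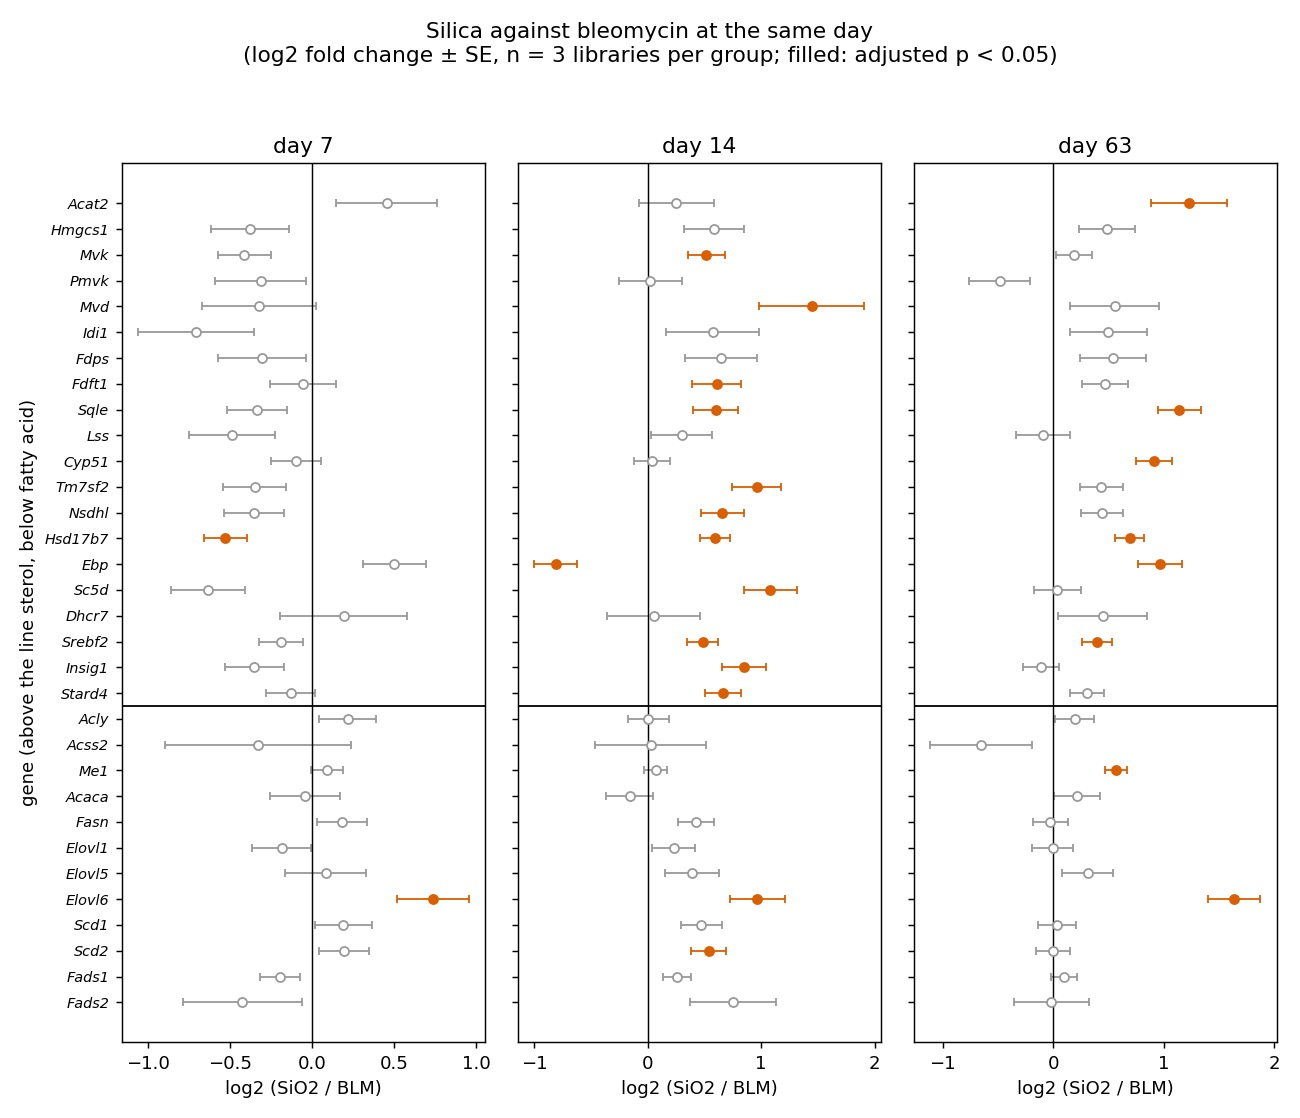
Log2 difference of SiO2 against BLM for the 32 genes (points, with bars for the standard error) on day 7, 14 and 63, with calls at an adjusted p of 0.05 in edgeR drawn filled and the sterol genes above the line. The day 63 calls all lie on the SiO2 side, led by Elovl6 and Acat2, and on day 14 Ebp alone is called on the BLM side.

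From day 14 to day 63, Insig1, Ebp and Me1 changed after BLM, and no gene of the 32 passed the test after SiO2. Between BLM day 14 and 63, 7 of 32 rose and 3 fell, where 32.3% of all genes were called (15.4% higher and 16.9% lower), so the share of the 32 (31.2%) was near the background. Insig1 rose (1.45 ± 0.19, adjusted p = 4.13e-07), and Ebp (-1.36 ± 0.20, adjusted p = 2.22e-06) and Me1 (-0.75 ± 0.10) fell, and these 3 calls held with every library left out in turn. The other calls were Mvk, Tm7sf2, Sc5d, Stard4, Scd1 and Fads1 upward and Cyp51 downward. Each of these 7 missed the threshold in at least 1 of the fits without BLM day 14 replicate 1, 2 or 3 or BLM day 63 replicate 1, 2 or 3, with DESeq2, with no low-count filter or fitted on the 2 groups alone (adjusted p up to 0.23). The count was 4 without BLM day 14 replicate 3, 5 without BLM day 14 replicate 1 or BLM day 63 replicate 3 and 6 without BLM day 63 replicate 1.

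Between SiO2 day 14 and 63, edgeR called 0 of 32, where 3.52% of all genes were called, 7 passed an unadjusted p of 0.05, and DESeq2 called 0. Without SiO2 day 63 replicate 1, edgeR called 1. The change from day 14 to 63 itself differed between the models for 3 genes whose change was more positive after SiO2 and 2 whose change was more positive after BLM (interaction term, 18.5% of all genes called, 9.7% and 8.81%). These were Ebp (1.77 ± 0.27, adjusted p = 1.38e-05), Cyp51 (0.88 ± 0.22), Me1 (0.50 ± 0.14), Insig1 (-0.96 ± 0.26) and Sc5d (-1.04 ± 0.32). The share of the 32 called (15.6%) was near the background. Sc5d missed the threshold without BLM day 14 replicate 3, BLM day 63 replicate 1 or SiO2 day 63 replicate 2 (adjusted p up to 0.0714). Me1 lost its call without BLM day 63 replicate 3 (adjusted p up to 0.052).

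Of 29 tested genes on a further list of lipid synthesis, uptake and control, 3 rose and 2 fell at BLM day 7, 4 and 5 at BLM day 14, 2 and 0 at BLM day 63, 5 and 4 at SiO2 day 7, 5 and 1 at SiO2 day 14 and 5 and 1 at SiO2 day 63. The share called was 17.2%, 31% and 6.9% after BLM by day and 31%, 20.7% and 20.7% after SiO2, each below that of all tested genes (31.6%, 39.3%, 11.5%, 44.1%, 24.1% and 27.8%). Aacs, which activates acetoacetate for lipid synthesis, rose in all comparisons but BLM day 63, by 1.05 to 1.25. Acacb, an acetyl-CoA carboxylase whose malonyl-CoA limits fatty acid oxidation, fell in all but BLM day 63, with log2 fold changes of -1.65 at SiO2 day 7 and -1.53 at BLM day 14. Acsl4, an acyl-CoA synthetase that favours arachidonate, rose in all 6, by 1.44 at BLM day 63 to 2.41 at SiO2 day 7. Srebf1, which encodes the SREBP that mainly drives fatty acid genes, passed in none of the 6 comparisons (-0.28 to 0.31; unadjusted p under 0.05 in 0). Acsl4 was not called at BLM day 63 without untreated replicate 1 or 2 or BLM day 63 replicate 2 or 3 (adjusted p up to 0.117).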

How the data were processed

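The 21 deposited tables hold whole-number read counts per gene symbol, one table per library, made by the authors from 3′SAGE-seq reads on an Ion Proton. Bowtie2 2.2.5 and build mm10 are named per the submitters' processing notes; the annotation, the counting program and its use of strand were not given in the sources used here. The counts were analysed as deposited. Genes with too few counts were removed with filterByExpr, libraries were scaled by TMM, and a 7-group model was fitted with edgeR 4.0.16 (quasi-likelihood test) in R 4.3.3 with limma 3.58.1, giving 14 residual degrees of freedom and a biological coefficient of variation of 12.0%. P-values were adjusted by Benjamini-Hochberg over all 11669 tested genes, and calls used an adjusted p of 0.05. DESeq2 1.42.0, other scalings, no filter, the 2 groups alone, a replicate block and each library left out were the alternatives; the fit was tested on simulated data. Library-by-library values are given for 22 genes: the 2 of each role with the smallest p in the joint test of the 6 treated groups, and any called with an absolute log2 fold change of at least 1 in any of the 12 comparisons. Further pathway genes are named by the same size rule against untreated libraries, plus Srebf1; some genes of that list are not reported here. Promoter windows were meant for genes with the sterol element letters; all but Hmgcs1 fall outside that rule. The members and lists were chosen with earlier results of these data known. Over all tested genes, same-numbered libraries did not deviate together (0 of 63 pairs had a correlation over 0.1), so numbers were not used as pairs. For the sterol genes alone, summed CPM was highest in replicate 1 in the untreated, BLM day 7 and SiO2 day 7, 14 and 63 groups. It was highest in replicate 2 at BLM day 14 and replicate 3 at BLM day 63. Gene coordinates are GENCODE vM21 (mm10), and promoters RefSeq GRCm38.p6. Sequences of members not in that table were not used here.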

Additional observations from a re-analysis of the deposited data

Results flagged for a closer look

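The change from day 14 to day 63 differed between the SiO2 and BLM models, by the interaction term of edgeR's quasi-likelihood fit, for 5 of the 32 genes. That is 15.6%, where 18.5% of all tested genes were called by the same term, so the share is no higher than the background. The log2 change in SiO2 minus that in BLM was 1.77 ± 0.27 for Ebp (adjusted p = 1.38e-05), 0.88 ± 0.22 for Cyp51 (0.00506) and 0.50 ± 0.14 for Me1 (0.0122). It was -0.96 ± 0.26 for Insig1 (0.00747) and -1.04 ± 0.32 for Sc5d (0.0194). Ebp fell after BLM (-1.36 ± 0.20) and was 0.41 ± 0.19 after SiO2, and Insig1 rose after BLM (1.45 ± 0.19) and was 0.49 ± 0.17 after SiO2. Sc5d was not called without BLM day 14 replicate 3, BLM day 63 replicate 1 or SiO2 day 63 replicate 2 (adjusted p up to 0.0714). Me1 did not pass without BLM day 63 replicate 3 (adjusted p up to 0.052).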

How the results depend on the processing

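Of 114 calls among the 32 genes in 12 comparisons, 61 were kept under every alternative run, and none reversed. With no low-count filter, the count of called genes was 4 in SiO2 against BLM on day 7 (against 2) and 1 in SiO2 day 63 against day 14 (against 0). With 1 library left out, counts of called genes ran from 1 to 4 for BLM day 63, 11 to 18 for SiO2 day 7, 7 to 14 for SiO2 day 14, 1 to 3 for SiO2 day 7 vs BLM day 7, 7 to 15 for SiO2 day 14 vs BLM day 14, 4 to 10 for BLM day 63 vs day 14 and 0 to 1 for SiO2 day 63 vs day 14. The sterol minus fatty acid median (log2), taken without the acetyl-CoA and NADPH suppliers and the non-enzymes, was 0.57 at BLM day 7 (against 0.26), -0.063 at BLM day 14 (against -0.37), 0.20 at SiO2 day 7 (against 0.059) and 0.21 at SiO2 day 63 (against -0.11, so the sign changed). The leave-one-out fits used all genes of both branches and not these reduced branches. With 1 library left out, the difference over all genes of both branches ran from -0.44 to -0.11 for BLM day 14, -0.34 to 0.038 for BLM day 63, -0.15 to 0.20 for SiO2 day 7, -0.30 to 0.042 for SiO2 day 14 and -0.16 to 0.19 for SiO2 day 63. It ran from -0.49 to -0.14 for SiO2 day 7 vs BLM day 7, 0.28 to 0.38 for SiO2 day 63 vs BLM day 63, 0.052 to 0.25 for BLM day 63 vs day 14, 0.0032 to 0.29 for SiO2 day 63 vs day 14 and -0.084 to 0.14 for the interaction. The cause of these shifts was not tested. Replicate numbers were given to all groups, so a replicate block was fitted: calls over all genes went from 3685 to 3624 at BLM day 7 and from 3249 to 3183 at SiO2 day 63, and of the member calls Ebp at BLM day 7 was lost. The block also added calls: the members that rose went from 11 to 13 at SiO2 day 14 and from 13 to 14 at SiO2 day 63. For 5 of 21 libraries, the mean correlation with libraries of other groups was highest for those of their own number. Depth limits the genes with single-digit counts, such as Acss2, Mvd and Dhcr7, most.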
